A study of Rattus norvegicus with 32 samples.

Results

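The signalling route from interleukin-6 (IL-6) to the transcription factor STAT3 was examined in rat left ventricle by the mRNA levels of 10 genes: Il6, Il6r, Il6st, Osmr, Lifr, Jak1, Jak2, Jak3, Tyk2 and Stat3. Members were the non-control probes that carried 1 of these symbols in either of the annotations used for the male and the female arrays, which gave 18 of 45598 probes and 10 of 39629 gene names. The samples were left ventricles of 32 young adult Wistar rats, each hybridised to a 1-colour Agilent array of its own, and collected 20 h after surgery. In each sex there were 5 sham rats, 5 rats with cecal ligation and puncture (CLP), a surgical model of abdominal sepsis, and 6 rats with CLP plus landiolol, which blocks β1-adrenergic receptors and is short-acting. Landiolol was infused in saline from shortly after CLP, the other groups received saline, and no sham group received landiolol. All rats were given buprenorphine before surgery and no antibiotics, and all hearts had been perfused outside the body for a measurement of function before the ventricle was taken.

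Cytokines of the IL-6 family share the signal-transducing receptor gp130, encoded by Il6st. IL-6 binds first to its own receptor, Il6r, whereas oncostatin M and leukaemia inhibitory factor bring gp130 together with Osmr or Lifr. The receptors have no enzyme activity of their own, and the Janus kinases JAK1, JAK2 and TYK2 that sit on their cytoplasmic tails phosphorylate STAT3, which then enters the nucleus, activates acute-phase genes, Stat3 itself and the feedback inhibitor Socs3, and is known in the heart for its part in the survival of myocytes under stress. JAK3 works mainly with the common γ chain of lymphocyte cytokine receptors. The arrays measured mRNA and not phosphorylation.

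Every gene was followed by its brightest probe over the 32 arrays, and these 10 probes were well above background on all 32 arrays. In build rn4, given in the files, they lay at chr4:457279-458563 for Il6, chr2:182078323-182078382 for Il6r, chr2:43838549-43838608 for Il6st, chr2:56080710-56080769 for Osmr, chr2:56477054-56477113 for Lifr, chr5:121804146-121804205 for Jak1, chr1:232974483-232974542 for Jak2, chr16:18889379-18889438 for Jak3, chr8:20128773-20128832 for Tyk2 and chr10:89821145-89821204 for Stat3. The Il6 probe has 60 bases and its interval 1285, so that it crosses an intron, and an annotation of exons in this build was not used here. The Jak2 probe, which gave the largest change of the 10 genes, and the second Il6st probe, which did not give the call of the first, are shown 5′ to 3′ because both can be read without a stop codon in at least 1 frame. The second Il6st probe lay at chr2:43833273-43833332.
Jak2 probe: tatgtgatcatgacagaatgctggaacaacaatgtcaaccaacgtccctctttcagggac
second Il6st probe: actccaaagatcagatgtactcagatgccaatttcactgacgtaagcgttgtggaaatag

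The 250 bases before the annotated start were available from RefSeq (build GRCr8) for 7 of the 10 genes, namely Il6, Il6r, Il6st, Osmr, Lifr, Jak2 and Stat3, and were compared with those of 33469 genes. On both strands, the palindromic cAMP response element TGACGTCA was found in 1 of the 7, Il6, and in 1.59% of all genes, and its core TGACG, which overlaps it, in 2 of the 7, Il6 and Il6r, and in 18.2% of all genes. The STAT motif TTCNNNGAA was found in 0 of the 7 and in 7.67% of all genes, and the AP-1 motif TGACTCA in 0 of the 7 and in 4.05%. The share of G and C in these windows was 81.2% for Jak2 and 36% for Il6st, the highest and the lowest of the 7, and 51.2% in the median gene. These matches describe the letters of the windows and say nothing of binding. The windows are printed below for the 3 genes with the largest changes after CLP in males and for Il6, the only one of the 7 with the full cAMP response element, with matches in capitals. They lie at chr4:5894576-5894825 (minus strand) for Il6, chr2:177645210-177645459 (minus strand) for Il6r, chr1:236408655-236408904 (plus strand) for Jak2 and chr10:86363360-86363609 (minus strand) for Stat3, and the last base of each precedes the start.
Il6: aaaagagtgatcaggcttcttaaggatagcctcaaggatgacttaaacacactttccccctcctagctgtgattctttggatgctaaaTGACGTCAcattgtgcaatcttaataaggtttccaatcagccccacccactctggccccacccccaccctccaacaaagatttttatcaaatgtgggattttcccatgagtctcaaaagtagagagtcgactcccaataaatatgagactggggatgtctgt
Il6r: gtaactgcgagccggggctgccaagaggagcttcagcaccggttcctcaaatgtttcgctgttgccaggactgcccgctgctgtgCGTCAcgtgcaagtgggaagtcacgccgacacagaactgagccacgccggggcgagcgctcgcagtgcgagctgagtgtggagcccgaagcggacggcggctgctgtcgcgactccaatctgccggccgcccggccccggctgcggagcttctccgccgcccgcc
Jak2: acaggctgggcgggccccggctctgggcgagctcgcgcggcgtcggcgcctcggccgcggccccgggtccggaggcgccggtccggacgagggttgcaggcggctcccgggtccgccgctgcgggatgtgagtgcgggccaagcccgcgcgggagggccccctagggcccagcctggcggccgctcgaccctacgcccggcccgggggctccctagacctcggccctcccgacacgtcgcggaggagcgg
Stat3: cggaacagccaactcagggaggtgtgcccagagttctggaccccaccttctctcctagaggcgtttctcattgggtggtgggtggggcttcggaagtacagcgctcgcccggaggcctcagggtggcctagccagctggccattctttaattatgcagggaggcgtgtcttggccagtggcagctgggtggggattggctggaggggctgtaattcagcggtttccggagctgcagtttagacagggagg

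The 16 arrays of each sex lay on 2 slides that held only that sex, so for levels, sex and slide cannot be told apart. In females, all 5 sham arrays lay in the first row of their slides and all 6 CLP plus landiolol arrays in the second row. Pearson correlations between arrays of a sex ranged from 0.936 to 0.989 in males and from 0.93 to 0.986 in females. From 34920 to 43155 of the 58717 non-control spots of an array were well above background. The 8 arrays of the first female slide, which held all 3 groups, carried another extraction protocol in their headers than the other 24 arrays.

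In males, 4 of the 10 genes passed an FDR of 1% after CLP, Jak2, Stat3, Il6r and Il6st, and all 4 were up-regulated (limma, Benjamini-Hochberg over all probes), where 8.12% of the 20657 genes tested passed in either direction. The same 4 genes had CLP levels above every sham level, where 12.7% of all genes separated the groups in either direction. The median change of the 10 genes was 0.703 on the log2 scale and that of all genes -0.000441. With landiolol, 2 of the 10 genes, Il6r and Stat3, were down-regulated against CLP at an FDR of 5%, where 1.59% of all genes passed, and 2 of the 10, Il6r and Lifr, had no overlap between these groups, against 2.34% of all genes. Against sham, 3 of the 10 remained up-regulated after landiolol, Jak2, Il6st and Stat3, where 4.34% of all genes passed at an FDR of 1%, and 2 of the 10, Jak2 and Stat3, had no overlap, against 8.03% of all genes. In females, Stat3 was the only 1 of the 10 genes up-regulated by CLP, where 4% of 17966 genes passed at an FDR of 1%. For 4 of the 10 genes, Il6r, Lifr, Jak3 and Stat3, all female CLP arrays were above all sham arrays, where 9.03% of all genes separated these groups in either direction. In females 0 of the 10 passed in CLP plus landiolol against CLP (limma and SAM), where 0.0835% of all genes passed at an FDR of 5% with limma, and 1 of the 10, Il6r, had an unadjusted p under 0.05, as did 9.65% of all genes. The groups overlapped in all 10 genes, and 1.23% of all genes separated them. Stat3 was also up-regulated in the female CLP plus landiolol group against sham, where 5.76% of all genes passed, and Lifr was the only 1 of the 10 without overlap, against 10.6% of all genes. With landiolol, the median changes of the 10 genes in males were -0.0329 against CLP and 0.556 against sham, and those of all genes 0.00179 and -0.00298. The median changes of the 10 genes in females were 0.371, -0.223 and 0.283 for CLP against sham, landiolol against CLP and landiolol against sham, and those of all genes -0.0193, 0.0287 and -0.00234. The comparisons of a sex share arrays, and their values are not independent.

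**Figure D1:**
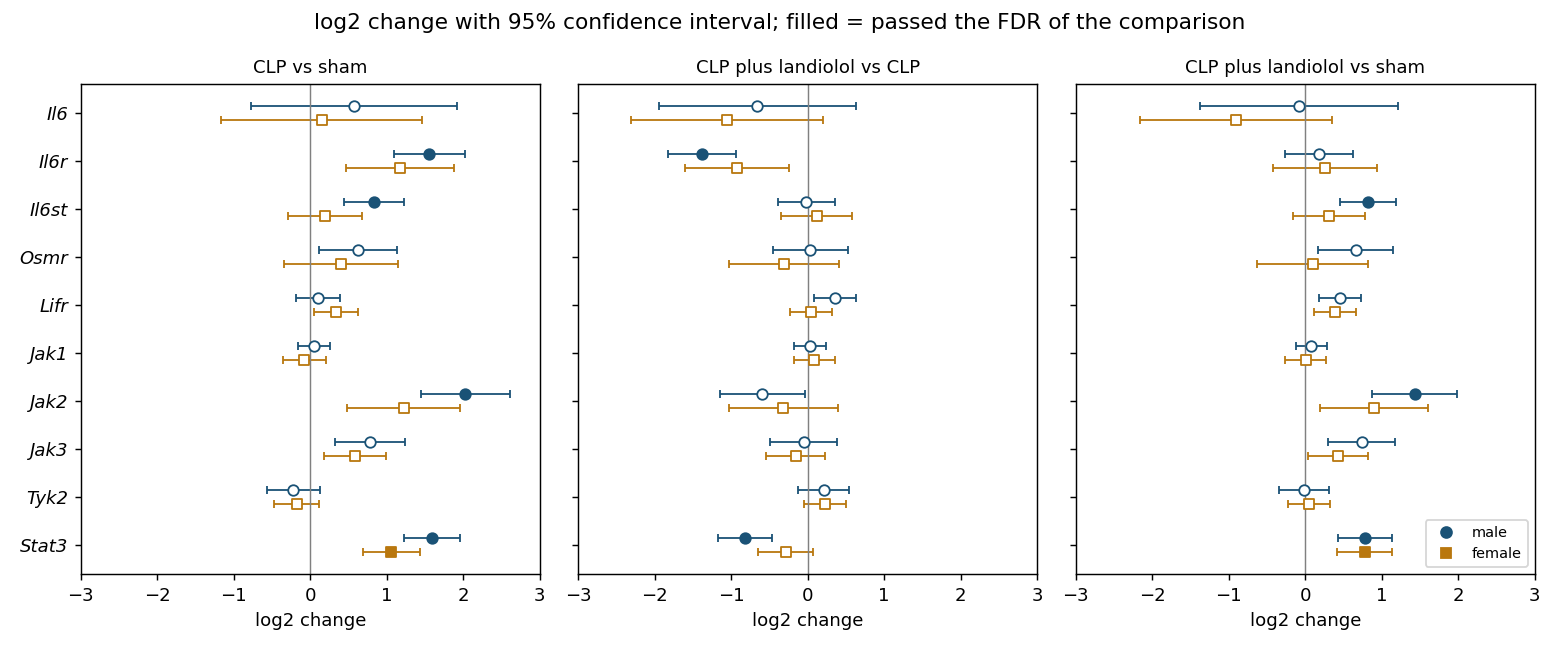
Change of each gene between groups on the log2 scale with its 95% confidence interval (limma), males as circles and females as squares, filled where the FDR of the comparison was passed. In males Il6r and Stat3 lie to the right of 0 after CLP and to the left of 0 for CLP plus landiolol against CLP, whereas Jak1, Tyk2 and Il6 include 0 in every comparison of both sexes.

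The ligand gene Il6 varied widely within every group. Its normalised log2 intensity was 7.93, 9.79, 8.80, 9.22 and 8.94 on the male sham arrays and 7.84, 9.61, 9.79, 10.03 and 10.26 on the male CLP arrays. In the male CLP plus landiolol group it ranged from 6.40 to 10.53 with a median of 8.99. The groups overlapped, and the widest range was that of the landiolol group. The change after CLP was 0.57 ± 0.636 (SE, n = 5 and 5; limma adjusted p = 0.624), with a 95% interval from -0.779 to 1.92. In females Il6 was 8.85, 10.18, 9.78, 9.68 and 10.48 in sham and 11.27, 8.88, 10.45, 10.54 and 8.58 in CLP, and ranged from 6.87 to 9.91 with a median of 9.48 after landiolol. These groups overlapped as well. The landiolol against CLP difference was -0.66 ± 0.609 in males (limma adjusted p = 0.63) and -1.06 ± 0.591 in females (limma adjusted p = 0.621), so that a fall of up to 2.31 and a rise of up to 0.195 lay within the female interval.

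Il6r, which binds IL-6 and can also act as a soluble receptor, rose after CLP in males and was back-regulated by landiolol. The male sham arrays gave 7.73, 8.02, 7.51, 8.50 and 7.80, and the male CLP arrays 8.93, 9.18, 9.74, 10.07 and 9.43. After landiolol the male levels ranged from 7.78 to 8.40 with a median of 8.07. Every CLP array was above every sham array and above every landiolol array, whereas the sham and landiolol groups overlapped. The rise after CLP was 1.56 ± 0.220 on the log2 scale, or 2.94-fold (limma adjusted p = 0.000226), and the fall with landiolol -1.38 ± 0.210, or 2.60-fold (limma adjusted p = 0.00496). Against sham, the landiolol group differed by 0.18 ± 0.210 (limma adjusted p = 0.652; 95% interval from -0.271 to 0.623). In females Il6r was 8.26, 7.98, 8.00, 7.63 and 8.54 in sham and 9.34, 9.18, 9.95, 9.07 and 8.76 in CLP, again without overlap, and after landiolol it ranged from 7.19 to 9.41 with a median of 8.51. The female change after CLP, 1.18 ± 0.333, had an adjusted p of 0.0358 (limma), which missed the FDR of 1%. The female difference between landiolol and CLP was -0.92 ± 0.318 (limma adjusted p = 0.341; 95% interval from -1.60 to -0.246), with landiolol replicate 6, at 9.41, above 4 of the 5 CLP arrays. The other Il6r probe, designed to another transcript record, was well above background on 5 of the 16 male and 1 of the 16 female arrays and was not tested.

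**Figure D2:**
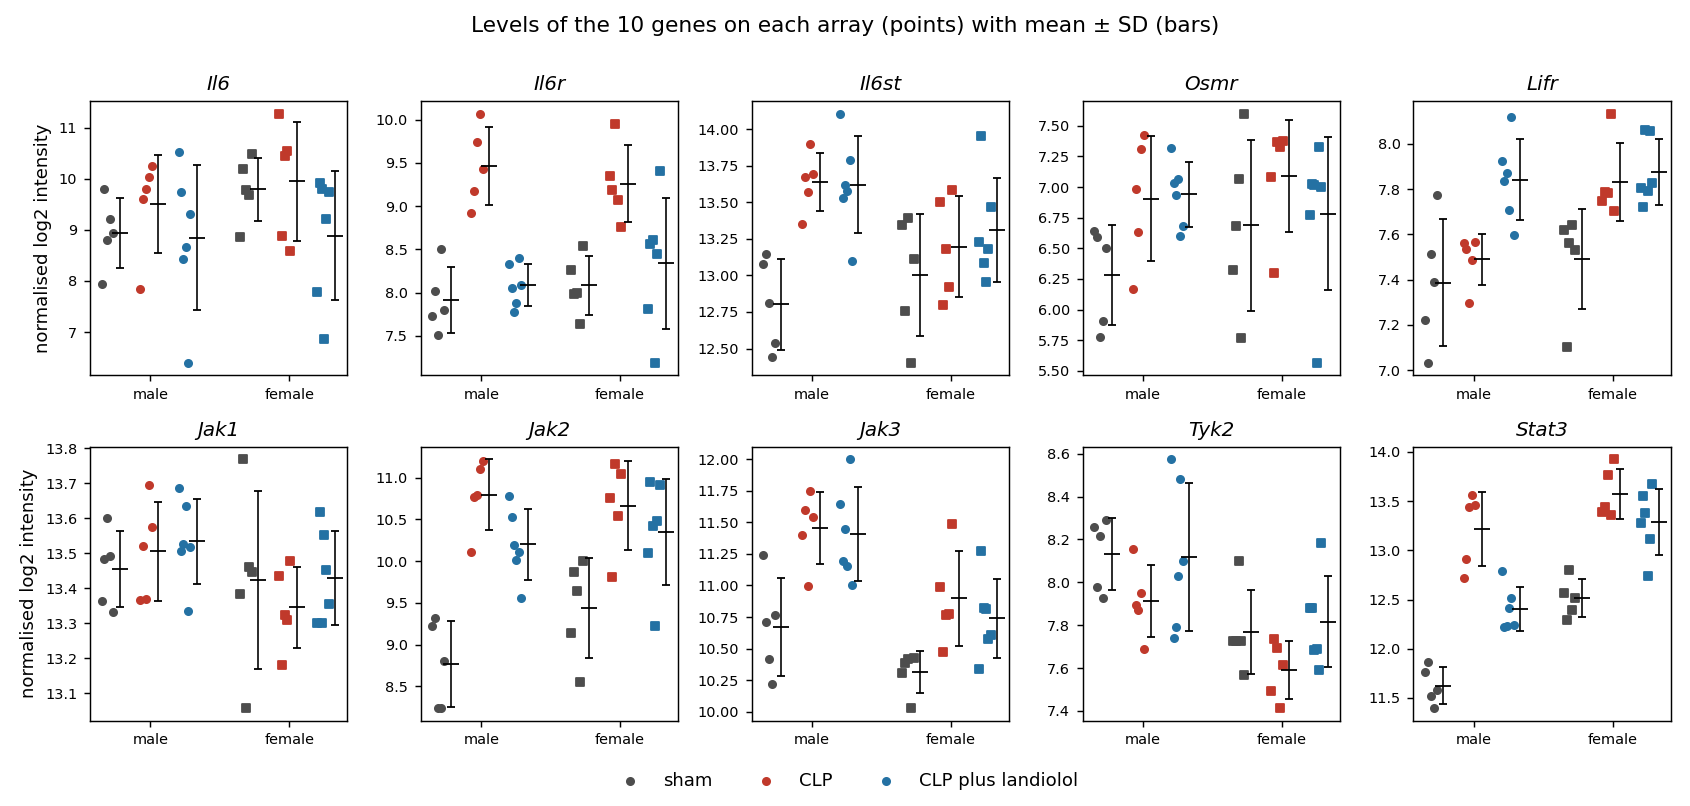
Normalised log2 intensity of each gene on the 32 arrays, with the mean ± SD of each group beside its points (males as circles and females as squares, with 5 arrays in a sham or CLP group and 6 in a landiolol group). The male CLP points of Il6r, from 8.93 to 10.07, stand above both other male groups, those of Jak2 and Stat3 above all male sham points, and the Jak1 points of all groups lie between 13.06 and 13.77.

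Il6st, the gp130 chain that all receptors of the family use, rose after CLP in males and stayed at that level with landiolol. The male sham arrays gave 13.08, 13.14, 12.81, 12.44 and 12.54, and the CLP arrays 13.35, 13.67, 13.57, 13.90 and 13.70. The landiolol group ranged from 13.10 to 14.11 with a median of 13.60. The CLP arrays were all above the sham arrays, and 1 landiolol array, replicate 6, lay within the sham range. The rise was 0.83 ± 0.182, or 1.78-fold, after CLP (limma adjusted p = 0.00541) and 0.82 ± 0.174 with landiolol against sham (limma adjusted p = 0.00721), and the difference between landiolol and CLP was -0.02 ± 0.174 (limma adjusted p = 0.971; 95% interval from -0.386 to 0.353). The second Il6st probe gave smaller changes of 0.55 after CLP and 0.57 with landiolol against sham, which did not pass (limma adjusted p = 0.115 and 0.114). Both calls of Il6st were also lost when most of the arrays were left out in turn: the call after CLP held without 3 of the 10 arrays and that with landiolol against sham without 3 of the 11. In females Il6st was 13.35, 12.76, 13.39, 12.40 and 13.11 in sham and 13.50, 12.80, 13.18, 12.92 and 13.58 in CLP, and the groups overlapped with a change of 0.19 ± 0.230 (limma adjusted p = 0.682).

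Osmr, the receptor chain for oncostatin M, did not pass in any of the 6 comparisons. Its male levels were 6.64, 6.59, 5.78, 5.91 and 6.51 in sham and 6.17, 6.99, 6.64, 7.31 and 7.42 in CLP, and ranged from 6.60 to 7.32 with a median of 6.98 after landiolol. The changes against sham were 0.62 ± 0.241 after CLP (limma adjusted p = 0.0946) and 0.66 ± 0.231 with landiolol (limma adjusted p = 0.0862). In females the changes were 0.40 ± 0.355 and 0.10 ± 0.339 (limma adjusted p = 0.553 and 0.898), over sham levels of 5.77 to 7.60. The other Osmr probe was well above background on 7 of the 16 male and 8 of the 16 female arrays, among them 1 of 5 male sham and 1 of 5 male CLP arrays, and no change is given for it. Lifr, the receptor chain for leukaemia inhibitory factor and cardiotrophin-1, was nearly level between sham and CLP in males, at 7.22, 7.03, 7.51, 7.39 and 7.77 against 7.56, 7.53, 7.30, 7.49 and 7.57, and ranged from 7.60 to 8.12 after landiolol. All 6 male landiolol arrays lay above all 5 CLP arrays, with a difference of 0.35 ± 0.130 (limma adjusted p = 0.212; 95% interval from 0.0755 to 0.63). In females Lifr was 7.62, 7.10, 7.56, 7.64 and 7.53 in sham and 7.75, 7.79, 7.78, 8.13 and 7.70 in CLP, and ranged from 7.72 to 8.06 after landiolol. The female sham arrays were below all others, but neither the change after CLP, 0.34 ± 0.134, nor that with landiolol, 0.39 ± 0.128, passed (limma adjusted p = 0.133 and 0.0603). The second brightest Lifr probe gave -0.27 in males after CLP, against 0.10 from the brightest probe, and 0.30 in females. The dimmest Lifr probe was well above background on 5 of 5 male sham and 3 of 5 male CLP arrays. In females these were 2 of 5 sham and 5 of 5 CLP arrays. It thus entered the test through 1 group in each sex, and no change is given for it.

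Among the kinases, Jak2 had the largest change of the 10 genes. The male sham arrays gave 9.22, 9.33, 8.24, 8.24 and 8.81 and the male CLP arrays 10.11, 10.77, 10.79, 11.11 and 11.20. Levels after landiolol ranged from 9.56 to 10.78 with a median of 10.16. The sham arrays were below all arrays of both other groups, and the CLP and landiolol groups overlapped. Jak2 rose by 2.03 ± 0.272, or 4.08-fold, after CLP (limma adjusted p = 0.000151) and was 1.43 ± 0.260, or 2.70-fold, above sham with landiolol (limma adjusted p = 0.00257). The difference between landiolol and CLP, -0.60 ± 0.260, did not pass (limma adjusted p = 0.299; 95% interval from -1.15 to -0.0419). In females the levels were 9.14, 9.87, 9.64, 8.55 and 10.01 in sham and 10.76, 9.81, 11.16, 10.55 and 11.04 in CLP, and ranged from 9.22 to 10.95 with a median of 10.45 after landiolol. Replicate 2 of the female CLP group lay within the sham range, and the change of 1.22 ± 0.350 missed the FDR of 1% (limma adjusted p = 0.0382).

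Jak3 was at 11.24, 10.71, 10.42, 10.22 and 10.77 in male sham and 11.40, 11.60, 10.997, 11.74 and 11.54 in male CLP, and ranged from 11.002 to 12 with a median of 11.32 after landiolol. The male change after CLP was 0.78 ± 0.215 (limma adjusted p = 0.0209) and that with landiolol against sham 0.74 ± 0.206 (limma adjusted p = 0.0336), both short of the FDR of 1%. In females Jak3 was 10.31, 10.39, 10.42, 10.03 and 10.43 in sham and 10.99, 10.48, 10.77, 10.78 and 11.49 in CLP. The female groups did not overlap, and the change was 0.58 ± 0.191 (limma adjusted p = 0.0697). Jak1, the kinase that gp130 signalling depends on most, changed by 0.05 ± 0.101 in males after CLP (95% interval from -0.163 to 0.264) and by -0.08 ± 0.132 in females (from -0.359 to 0.202). Over all 6 comparisons the estimates of this Jak1 probe lay between -0.08 and 0.09. Those of the second Jak1 probe lay between -0.18 and 0.15, without a call. Tyk2 changed by -0.22 ± 0.162 in males and -0.18 ± 0.137 in females after CLP (limma adjusted p = 0.417 and 0.486). Its probes went different ways: for landiolol against CLP they gave 0.21, -0.11 and -0.60 in males and 0.23, 0.55 and -0.44 in females, in the order of their brightness, and 0 of these 6 values passed. The dimmest Tyk2 probe, which gave -0.60 and -0.44, was designed to another transcript record than the brighter ones.

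Stat3 rose after CLP in both sexes. The male sham arrays gave 11.76, 11.86, 11.52, 11.40 and 11.58, and the male CLP arrays 12.72, 12.91, 13.44, 13.57 and 13.46. With landiolol the male levels ranged from 12.22 to 12.79 with a median of 12.33. All CLP and all landiolol arrays were above all sham arrays, and landiolol replicate 1, at 12.79, was above CLP replicate 1, at 12.72, the only overlap between these groups. The rise after CLP was 1.59 ± 0.173, or 3.02-fold (limma adjusted p = 3.1e-05). The landiolol group differed from CLP by -0.82 ± 0.165, or 1.76-fold lower (limma adjusted p = 0.0236), and was 0.78 ± 0.165 above sham (limma adjusted p = 0.0071). The difference between landiolol and CLP lost its call with only these groups fitted (adjusted p = 0.0708) and without any 1 of CLP replicates 3, 4 or 5 or landiolol replicates 2, 3 or 6, with adjusted p up to 0.0808, and that between landiolol and sham was lost without 9 of the 11 arrays, with adjusted p up to 0.0233.

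The female sham arrays gave Stat3 levels of 12.57, 12.29, 12.80, 12.39 and 12.52 and the female CLP arrays 13.39, 13.44, 13.76, 13.36 and 13.93. In the female landiolol group they ranged from 12.74 to 13.67 with a median of 13.33. The CLP arrays were all above sham, and landiolol replicate 4, at 12.74, fell within the sham range. The female rise after CLP was 1.06 ± 0.178, or 2.09-fold (limma adjusted p = 0.00157), and the level with landiolol was 0.78 ± 0.171 above sham (limma adjusted p = 0.00736). The female difference between landiolol and CLP was -0.29 ± 0.171 (limma adjusted p = 0.645; 95% interval from -0.648 to 0.075). When the array's row on its slide was added to the fit, the changes against sham were 1.02 after CLP and 0.66 with landiolol (limma adjusted p = 0.0131 and 0.531), and the part of the row in these values was not tested further. The landiolol against sham call in females was also lost without 9 of the 11 arrays.

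The change of a gene in 1 sex was compared with that in the other by an interaction term on all 32 arrays. In each of the 3 comparisons 0 of the 10 genes differed between the sexes at an FDR of 5%, as did 0% of 18629 genes (limma interaction; at an unadjusted p under 0.05, 2, 1 and 0 of the 10 genes and 3.75%, 4.79% and 6.81% of all genes for CLP against sham, landiolol against CLP and landiolol against sham). Female minus male differences in the change after CLP were -0.54 ± 0.245 for Stat3 (95% interval from -1.04 to -0.0332), -0.65 ± 0.296 for Il6st (from -1.26 to -0.0434) and -0.76 ± 0.460 for Jak2 (from -1.70 to 0.182), each with a limma adjusted p of 1. For landiolol against CLP, Stat3 differed by 0.53 ± 0.235 (limma adjusted p = 0.969; 95% interval from 0.0519 to 1.01) and Il6r by 0.44 ± 0.394 (limma adjusted p = 0.969; 95% interval from -0.364 to 1.25). A call in males without one in females is therefore not a measured difference between the sexes.

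Changes after CLP were unequal between the slides of a sex. Jak2 differed between CLP and sham by 1.28 on the first and 2.72 on the second male slide, Stat3 by 1.21 and 2.01, Il6r by 1.41 and 1.81, Il6st by 0.422 and 1.2, and Osmr by -0.0161 and 1.30. The direction of the 4 called genes was the same on both slides. On the female slides, which also differed in extraction protocol, the differences were 0.769 and 1.35 for Stat3, 0.583 and 1.78 for Jak2, 0.863 and 1.54 for Il6r, and -0.424 and 0.838 for Il6st, which changed sign. The fall of Il6r with landiolol against CLP was -1.23 and -1.63 on the male slides and that of Stat3 -0.61 and -1.12, whereas Jak2 differed by -0.0537 and -1.26. With the slide as a term in the fit, 4, 2 and 3 of the 10 genes passed in the 3 male comparisons, as without it, and 1, 0 and 0 in the female ones.

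**Figure D3:**
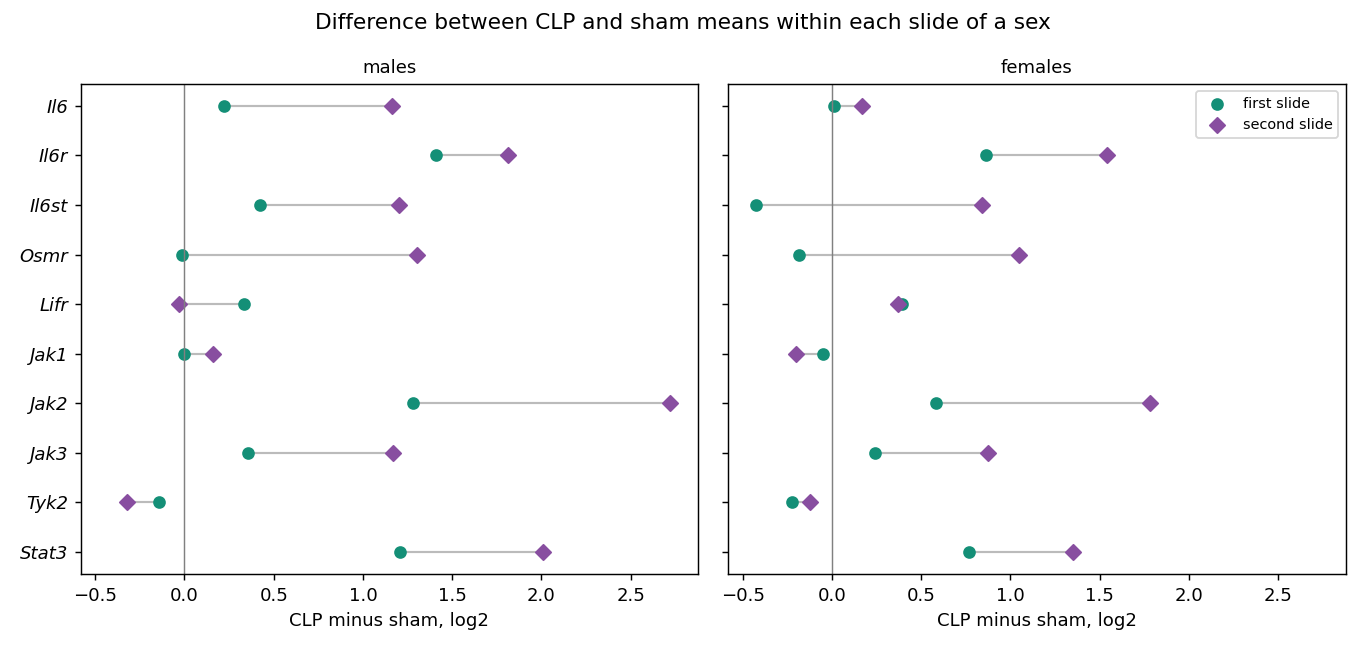
Difference between the CLP and sham means on the log2 scale for each gene within the first (circles) and second (diamonds) slide of males and of females, with 2 or 3 arrays of a group on a slide. Stat3, Il6r and Jak2 lie to the right of 0 on all 4 slides, and for 8 of the 10 genes in males the second slide gave the more positive value.

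The other genes of the route were followed in lists. After CLP, 8.12% of all genes passed in males and 4% in females, so 0 or 1 call in lists this short does not set them apart. Of the other IL-6 family ligands, 0 of the 8 tested in males and 0 of the 7 tested in females passed after CLP, with median changes of 0.171 and 0.259. Ebi3, a subunit of IL-27 and IL-35, was the only ligand to pass in another comparison, 1.26 ± 0.267 with landiolol against sham in males (limma adjusted p = 0.00711), where 4.34% of all genes passed. It was named after its value was seen. For the other family receptors, Il11ra1, Cntfr and Il27ra, 0 of the 2 tested in males and 0 of the 1 tested in females passed, and the 4 genes of receptor shedding, which include the protease Adam17 that releases soluble IL-6 receptor, gave 0 calls in all 6 comparisons. Among 6 other STATs tested in males, 1 fell after CLP, Stat5a by -0.64 ± 0.146 (limma adjusted p = 0.00683), with a median change of -0.246.

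Of the 16 inhibitors of JAK and STAT signalling, 2 rose in males after CLP and 0 fell, and 1 rose in females, where 8.12% and 4% of all genes passed. Ptpn2, a phosphatase that acts on JAK and STAT proteins, rose by 1.48 ± 0.167 in males and 0.86 ± 0.151 in females (limma adjusted p = 4.34e-05 and 0.00224) and fell with landiolol against CLP in males by -0.76 ± 0.160 (limma adjusted p = 0.0276). Ptpn6, the phosphatase SHP-1 of blood cells, rose by 1.37 ± 0.134 in males after CLP (limma adjusted p = 1.24e-05) and rose further with landiolol, by 0.76 ± 0.128 (limma adjusted p = 0.00757). The median changes of this list after CLP were 0.182 in males and 0.157 in females. Socs3, the feedback inhibitor that STAT3 induces, was chosen for mention after its values were seen and changed by 0.48 ± 0.412 in males and 1.05 ± 0.315 in females (limma adjusted p = 0.503 and 0.047).

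Of the 23 tested genes known to be induced by STAT3, 5 rose and 1 fell after CLP in each sex, where 8.12% of all genes passed in males and 4% in females, with median changes of 0.479 in males and 0.602 in females. Lcn2, an iron-binding acute-phase protein, went from a mean of 10.19 in male sham to 15.30 in CLP and 13.76 with landiolol, and from 11.07 to 14.89 and 14.06 in females. Its changes were 5.10 ± 0.350 and 3.82 ± 0.412 after CLP (limma adjusted p = 6.72e-07 and 5.97e-05), and the fall with landiolol was -1.53 ± 0.335 in males (limma adjusted p = 0.0314), the only call of the list for landiolol against CLP in either sex. Lbp, which binds bacterial lipopolysaccharide, rose by 1.87 ± 0.210 in males and by 2.03 ± 0.219 in females. A2m, an acute-phase protease inhibitor of the rat, is counted among the 5 in males, but was well above background on 5 of 5 CLP arrays, at a mean log2 level of 5.76, and on 2 of 5 sham arrays, so that it entered the test through the septic groups and the size of its change is not given. Ccnd1, the cyclin of early cell cycle progression, fell in both sexes, by -2.47 ± 0.243 and -2.23 ± 0.325 (limma adjusted p = 1.37e-05 and 0.000587), which is opposite to the name of the list.

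Among 19 tested receptors of other cytokines that use JAKs, 2 rose and 2 fell in males after CLP, and 0 rose and 2 fell in females, beside the same shares of all genes. Csf2rb, the shared chain of the GM-CSF, IL-3 and IL-5 receptors, is counted as risen in males, but was well above background on 5 of 5 CLP arrays, at a mean log2 level of 6.12, and on 2 of 5 sham arrays, so that it too entered the test through the septic groups. The other, Il13ra1, rose by 1.09 ± 0.245 (limma adjusted p = 0.00673). The growth hormone receptor Ghr fell by -0.98 ± 0.143 in males and -0.85 ± 0.172 in females (limma adjusted p = 0.000299 and 0.00549), and Il2rb by -0.73 ± 0.155 in males (limma adjusted p = 0.00447). The median changes of the list were 0.0719 and 0.042.

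**Figure D4:**
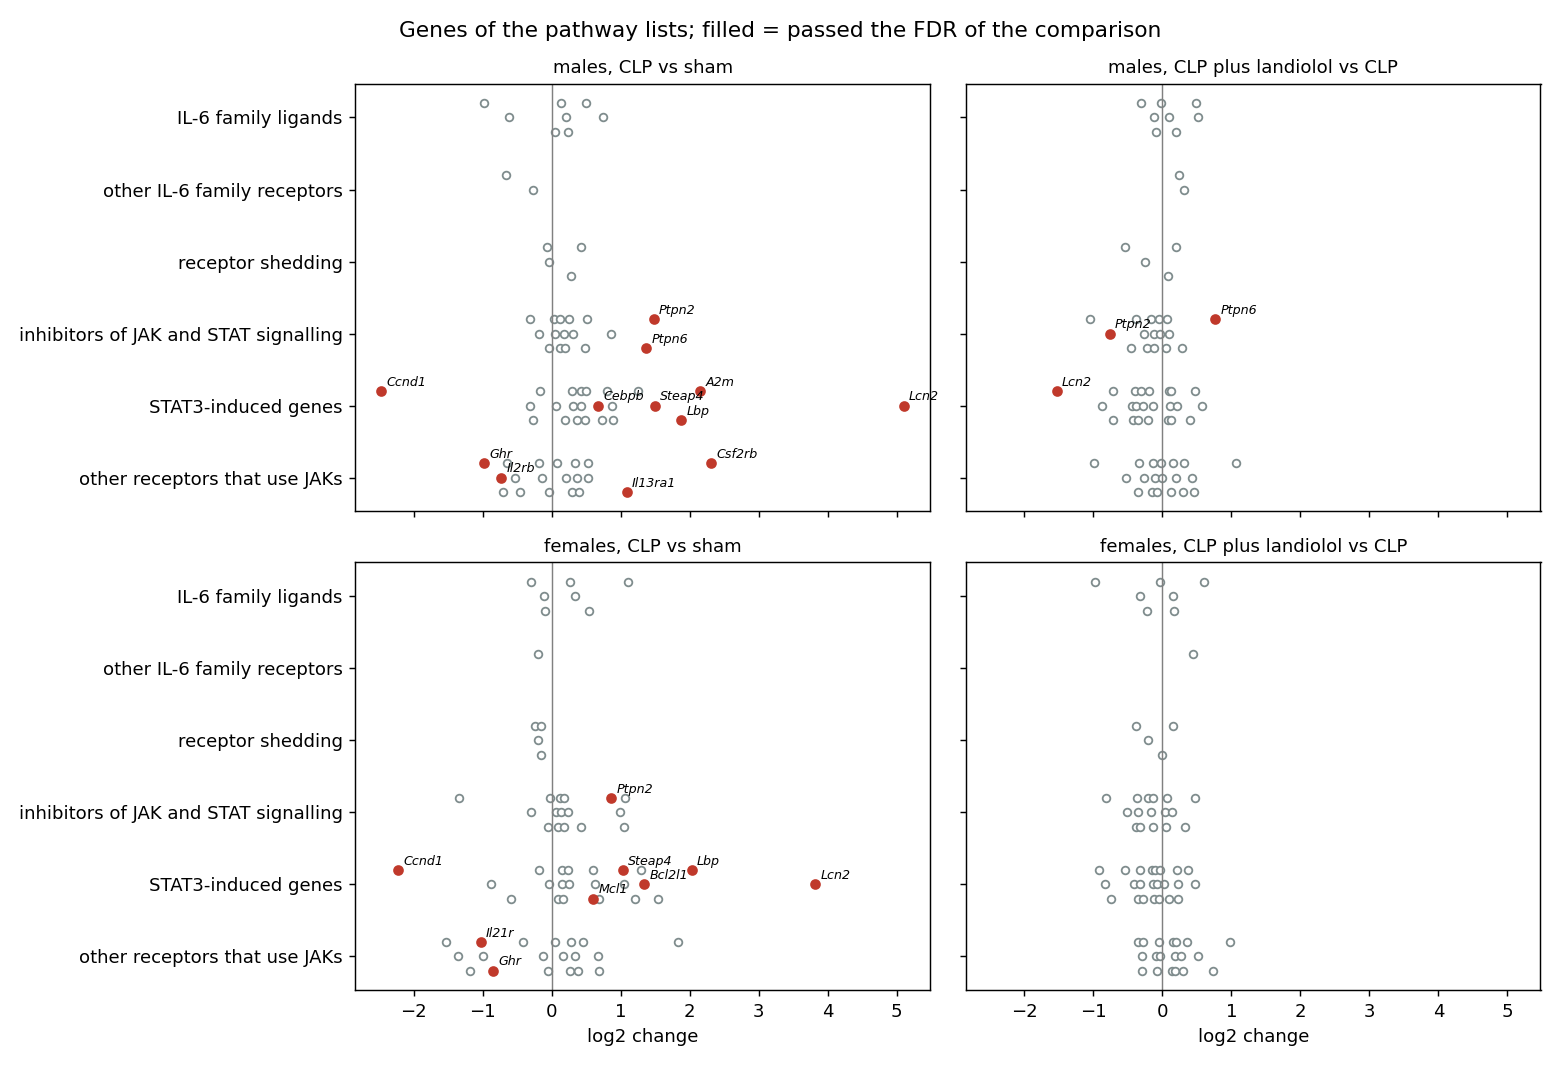
Change on the log2 scale of every tested gene in the lists of ligands, receptors, receptor shedding, inhibitors and STAT3-induced genes, for CLP against sham (left) and CLP plus landiolol against CLP (right), filled and named where the FDR was passed; the small vertical offsets only separate the points. Lcn2 stands furthest right in both sexes after CLP, at 5.10 and 3.82, and Ccnd1 furthest left, and no point is filled for landiolol against CLP in females.

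Across the 16 arrays of a sex, Pearson's r between Stat3 and Jak2 was 0.924 in males and 0.834 in females, between Stat3 and Il6r 0.853 and 0.705, between Il6st and Jak2 0.909 and 0.634, and between Il6r and Il6st 0.466 and 0.309. These correlations include the difference between sham and septic groups, which the arrays of a pair share. Among 18840 other symbols, those most like Stat3 by the mean r of both sexes were Cpne8 (0.953), Fgf2 (0.951), Rcl1 (0.931), the uncharacterised LOC102548772 (0.929) and Net1 (0.929), over 16 arrays per sex. Those most like Il6r were Csnk1a1 (0.892), LOC103693713 (0.851), Cda (0.848), the cAMP phosphodiesterase Pde4b (0.846) and Pcnt (0.839). For Osmr they were Ugdh (0.821), Plscr1 (0.811), Jak2 (0.81), a transcript without a symbol (0.781) and the complement factor Cfb (0.772).

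Some markers of other cells differed between sham and CLP, and other lists gave no call. In bulk tissue, fewer cells of a type and less RNA per cell cannot be told apart. After CLP, 8.12% of all genes passed in males and 4% in females, the shares beside which the counts of each marker list stand. Of 12 macrophage and monocyte markers, 4 rose in males and 3 in females after CLP. The log2 of their summed intensity went from 14.95 to 15.44 in male sham to 15.76 to 16.23 in CLP and 15.45 to 16.19 with landiolol. In females it went from 15.19 to 15.41 to 15.63 to 16.21 and 15.81 to 16.22. Of 10 neutrophil markers, 3 could be tested, of which 2 rose in males and 1 in females, and their summed level was 5.16 to 5.85 in male sham, 7.02 to 9.64 in CLP and 7.95 to 9.74 with landiolol, and 5.28 to 6.79, 7.20 to 8.70 and 7.38 to 10.07 in females. S100a8 was well above background on 0 of 5 male sham and 5 of 5 male CLP arrays. In males it thus entered the test and the summed level through the septic groups. The male count and summed level of this list therefore do not measure the size of a rise. The mean log2 level of the tested markers was 3.29 to 4.14 in male sham and 3.32 to 5.01 in female sham. With sham levels this low, the female summed levels do not give a reliable size of a rise either. Elane, Ltf and Mmp8 were well above background on 0 arrays of the male sham and CLP groups. The landiolol groups overlapped the CLP groups in the summed level of both lists, and 0 markers of either passed for landiolol against CLP. Of 12 lymphocyte markers, 5 could be tested in each sex and 0 passed, with Ms4a1, a defining B cell marker, well above background on 0 male sham and CLP arrays. In males Cd3d, Cd4 and Nkg7 changed after CLP by -0.103, -0.0097 and -0.86. Cd3g, at -1.36 ± 0.328 (limma adjusted p = 0.0101), just missed the FDR of 1%. Cd8a, tested in males only, was well above background on 4 of 5 sham and 0 of 5 CLP arrays. It thus entered the test through the sham group, and its change is not given. In females Cd3d and Cd4 changed after CLP by 0.0197 and 0.0933, and Cd3g and Nkg7 by -0.665 and -0.658. Cd8b, tested in females only, was well above background on 4 of 5 sham and 3 of 5 CLP arrays. It too entered the test through the sham group, and its change is not given. The 8 cardiomyocyte markers gave 0 calls in every comparison. Their summed level was 21.36 to 21.48 in male sham, 21.26 to 21.41 in CLP and 21.26 to 21.45 with landiolol. The median change of the list after CLP was -0.0565 in males and 0.0203 in females. Actc1 changed after CLP by -0.691 in males and -0.721 in females (limma adjusted p = 0.0308 and 0.0951). With landiolol against sham in females it changed by -1.06 ± 0.246 (limma adjusted p = 0.0105), which just missed the FDR of 1%. Endothelial markers gave 0 calls of 7 after CLP in both sexes, and of 7 fibroblast markers 4 fell and 1 rose in males, with a summed level of 16.25 to 16.93 in sham and 15.55 to 16.47 in CLP, and 0 passed in females. The median change of the fibroblast list was -1.34 in males and -0.946 in females, and 2 of the 7 were higher in each sex. In females Col1a1 differed by -1.61 ± 0.419 (limma adjusted p = 0.0239), which missed the FDR of 1%. The part of the immune cells in the rise of Stat3, Jak2, Il6r and Il6st was not tested.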

How the data were processed

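Total RNA of the left ventricle of 32 rats was hybridised to 1-colour Agilent arrays, and the deposited scanner files hold spot intensities that the authors extracted with Agilent Feature Extraction 10.5 under 1 protocol for 24 arrays and another for the 8 arrays of the first female slide, already background-subtracted within an array. A second deposited source was the authors' own quantile-normalised log2 table, whose column medians were 9.62 to 9.71, and each of its columns had a Spearman correlation of at least 0.995 with its own array. Its offset before the logarithm is not given in the sources used here.

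Groups came from the source names in the labels and replicate numbers only name the arrays. Control spots and outlier spots were left out, replicate spots of a probe were averaged, log2 of the processed signal was quantile-normalised within a sex, and a probe was tested when at least 80% of the arrays in 1 group of that sex had it well above background (25864 probes in males, 25394 in females). The 3 groups of a sex were fitted together with limma 3.58.1 in R 4.3.3 (lmFit and eBayes), with Benjamini-Hochberg adjustment over all kept probes. As in the study, the FDR was 1% for CLP against sham and 5% for landiolol against CLP. An FDR of 1% was chosen here for landiolol against sham and 5% for the interaction with sex, for which the 32 arrays were normalised together. Levels printed are log2 intensities of 1 probe and are not comparable between genes. Errors are standard errors of the fit. P-values set the difference between groups against the spread between rats, and the number of arrays limits the precision. A gene was represented by its brightest probe, and gene names are those of the array annotation of each sex, which differed for 11067 probes. Up to 4 genes of each list that passed after CLP, by size of change in males and then in females, were named. Genes most like Stat3, Il6r and Osmr were ranked by the mean over the sexes of Pearson's r.

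The alternatives were another scaling (75th percentile), normexp background correction (offset 50), no filter, slide or row of the slide as a term, the authors' table, SAM with 100 permutations, only the compared groups, other FDR levels, other probes, and leaving out each array in turn. The limma, SAM and interaction steps were tested on simulated data. The 10 genes and the lists were chosen with earlier results of these data known. Promoter sequences were taken from RefSeq. The values of the other STATs in females are not reported here.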

Additional observations from a re-analysis of the deposited data

Results flagged for a closer look

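In 5 of the 60 combinations of a gene and a group, 1 array stood apart from the others of its group by Dixon's test at the 95% level, which chance gives in about 1 of 20 groups. These were Il6 in male CLP replicate 1, at a log2 level of 7.84, Osmr in female CLP replicate 2, at 6.30, and Osmr in female CLP plus landiolol replicate 4, at 5.57. The other arrays were female sham replicate 2 and female CLP replicate 4, both for Lifr, at 7.10 and 8.13. None of these values belonged to a gene and comparison that passed the test.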

How the results depend on the processing

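For CLP against sham in males, 4 of the 10 members passed in the main fit and 3 to 5 when 1 array was left out. Of the members called there, Il6r, Jak2 and Stat3 kept their calls in 9 of 9 other settings and without any 1 of the 10 arrays. Il6r kept its call for landiolol against CLP in males in 9 of 9 settings, with changes from -1.40 to -1.19, and without any 1 of the 11 arrays (adjusted p up to 0.0191). Il6st lost its call after CLP in males without the filter (adjusted p = 0.0103), with the authors' table (0.011) and with the second probe (0.115), and without sham replicates 3, 4 or 5 or CLP replicates 2, 3, 4 or 5.

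For landiolol against CLP in males, 1 of the 10 members passed with only the compared groups fitted (0.62% of all genes) and 1 at an FDR of 1% (0.329%), against 2 in the main fit, and 1 to 2 without 1 array (1 without CLP replicate 3, 4 or 5 or landiolol replicate 2, 3 or 6). For landiolol against sham in males, 3 members became 1 without the filter (1.91% of all genes), 1 with the row as a term (3.82%) and 5 at an FDR of 5% (10.1%), and 1 to 3 without 1 array (1 without sham replicate 3, 4 or 5 or landiolol replicate 1, 2, 3, 4 or 5). For CLP against sham in females, 1 member became 0 with the row as a term (1.49% of all genes), 2 with SAM (5.57%), which added Il6r, and 3 at an FDR of 5% (9.92%). For landiolol against sham in females, 1 member became 0 without the filter (2.85% of all genes), with the slide (5.49%) or the row (0.0891%) as a term, with the authors' table (6.14%) and with only the compared groups fitted (5.77%), and 0 to 1 without 1 array (0 without sham replicate 1, 2, 4 or 5 or landiolol replicate 1, 2, 3, 5 or 6). SAM also called Jak3 after CLP in males (adjusted p = 0.00928) and Lifr for landiolol against CLP in males (adjusted p = 0.0399). SAM called more of all genes in both comparisons. It called 2161 of 20642 genes after CLP, against 1677 of 20657 in the main fit. For landiolol against CLP it called 904 of 20644, against 329 of 20657. The counts of members for landiolol against CLP in females and for the differences between the sexes were 0 in every setting run. The causes were not tested.

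Changes that turned sign were all of genes that did not pass. After CLP in males, Jak1 was -0.0498 in the authors' table and -0.016 with its second probe, Lifr -0.27 with its second brightest probe and Tyk2 0.25 with its dimmest. For landiolol against CLP in males, Il6st was 0.0013 with the slide as a term, 0.0336 in the authors' table and 0.0187 with its second probe, Jak1 -0.17 with its second probe, and Tyk2 -0.11 and -0.60 with its other probes. For landiolol against sham in males, Jak1 was -0.18 with its second probe. In females, the dimmest Tyk2 probe gave 0.10, -0.44 and -0.34 in the 3 comparisons, Lifr was -0.0414 for landiolol against CLP with the row as a term, and Osmr -0.34 against sham with it. Jak1 for landiolol against sham in females was -0.0534 with 75th percentile scaling, -0.0122 with normexp, -0.0144 with the slide, -0.0737 with the row and -0.09 in the authors' table.

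Without 1 array, the changes for landiolol against CLP in males ranged from -0.15 to 0.16 for Osmr, from -0.0049 to 0.0772 for Jak1, from -0.11 to 0.0887 for Il6st and from -0.17 to 0.0318 for Jak3, and those against sham from -0.11 to 0.0622 for Tyk2 and from -0.42 to 0.40 for Il6. In females they ranged after CLP from -0.18 to 0.49 for Il6 and from -0.17 to 0.0073 for Jak1, for landiolol against CLP from -0.0131 to 0.21 for Il6st, and against sham from -0.0844 to 0.0921 for Jak1, from -0.13 to 0.34 for Osmr and from -0.0246 to 0.13 for Tyk2. No paired analysis was possible because the labels give no replicate numbers that join rats of different groups.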
